A study of Mus musculus with 37 samples.

Results

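The 8 genes Notch1, Notch2, Dll1, Dll4, Jag1, Adam10, Rbpj and Hes1, the core of the Notch pathway in the intestinal epithelium, were taken by their symbols from 3 tables of gene counts, which held 27407, 20500 and 27547 genes. All 8 had a row in each of the 3 tables. The tables came from jejunal organoids, which are small intestinal epithelia grown in culture from crypts of mice aged 6 to 12 weeks of both sexes, in medium with EGF, Noggin and R-Spondin-1. Vasoactive intestinal peptide (VIP), a transmitter of enteric neurons, was given at 100 nM. In the first experiment, whole organoids of C57Bl/6 mice were treated with VIP for 72 h (4 mice) or left untreated (3 of these mice). In the second, organoids of Lgr5-EGFP-IRES-CreERT2 mice, in which the Lgr5 promoter drives EGFP, were treated with VIP for 72 h or left untreated, and Lgr5-EGFP+ progenitor cells were sorted (4 mice, both conditions). In the third, organoids of the same reporter strain were irradiated with 6 Gy or not irradiated, each with or without VIP for 48 h, and Lgr5-EGFP+ cells were sorted again (4 mice, all 4 conditions). All groups of the sorted cells thus carried the same reporter allele, and the samples of a mouse were compared with each other.

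The Notch pathway works between neighbouring cells. A ligand on one cell (Dll1, Dll4 or Jag1) pulls on a receptor on the next (Notch1 or Notch2), the receptor is cut by the protease Adam10 and then by the gamma-secretase complex, and the freed intracellular part joins the DNA-binding protein Rbpj in the nucleus and switches on targets such as Hes1. Hes1 encodes a repressor of Atoh1, the transcription factor that commits intestinal progenitors to the secretory fate, so cells with Notch activity stay progenitors or become enterocytes while cells that carry ligand become goblet, Paneth, enteroendocrine or tuft cells. Notch1, Notch2 and the ligands Dll1 and Dll4 serve stem cell maintenance in the mouse small intestine, and Olfm4, a secreted protein of crypt base stem cells, is a further known Notch target there.

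In GENCODE M21 on GRCm38, Notch1 lies on chromosome 2 (26457903 to 26516663, minus strand), Notch2 on chromosome 3 (98013527 to 98150361, plus strand), Dll1 on chromosome 17 (15367354 to 15376872, minus strand), Dll4 on chromosome 2 (119325784 to 119335962, plus strand) and Jag1 on chromosome 2 (137081456 to 137116644, minus strand). The counts themselves were made with GENCODE M25. Adam10 lies on chromosome 9 (70678997 to 70780229, plus strand), Rbpj on chromosome 5 (53466152 to 53657362, plus strand) and Hes1 on chromosome 16 (30064384 to 30067796, plus strand). The 3′ end of Notch1, the end at which this method counts, is overlapped on the opposite strand by the noncoding transcripts 0610009E02Rik and Gm13568. The strand setting of the counting is not given in the sources used here, so that reads of Notch1 and of these transcripts may not be told apart.

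Promoters (RefSeq, GRCm38.p6, 300 bases from 250 before to 50 after a start) were at hand for 7 of the 8 genes. TGGGAA, the core of the Rbpj binding sequence, was searched on both strands and found in 25.6% of all 32851 promoters of this length. Among the 7 genes it was present in the promoter of Rbpj, and it also occurred 1 time in that of Olfm4. CACGCG and CACNAG, 2 sequences that Hes repressors bind, were found in 9.27% and 42.5% of all promoters, and both occurred at the second listed start of Dll1 and in the promoters of Notch2 and Dll4. CACGCG also occurred 2 times in the promoter of Jag1 and CACNAG 3 times in that of Notch1, and the first listed start of Dll1 held neither. The promoters of Olfm4, the pathway target that changed below, and of Dll1, the member with the lowest p in whole organoids, are shown 5′ to 3′ on the strand of the gene, with TGGGAA in capitals for Olfm4 and CACGCG and CACNAG in capitals for Dll1. A match of letters is not a measured binding site.
Olfm4, chr14:80000052-80000351, plus strand: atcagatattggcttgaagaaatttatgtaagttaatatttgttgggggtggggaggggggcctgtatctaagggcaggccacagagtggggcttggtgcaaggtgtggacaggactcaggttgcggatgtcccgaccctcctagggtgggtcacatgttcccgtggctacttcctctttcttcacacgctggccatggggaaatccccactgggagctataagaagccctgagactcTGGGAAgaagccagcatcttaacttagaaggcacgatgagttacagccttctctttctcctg
Dll1, chr17:15376883-15377182, minus strand: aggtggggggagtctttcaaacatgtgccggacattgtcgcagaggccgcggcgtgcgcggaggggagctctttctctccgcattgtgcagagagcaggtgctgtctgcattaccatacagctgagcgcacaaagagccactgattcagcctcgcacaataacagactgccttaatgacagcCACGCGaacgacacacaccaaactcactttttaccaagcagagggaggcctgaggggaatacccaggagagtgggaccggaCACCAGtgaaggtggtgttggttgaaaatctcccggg

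The counts are unique molecular identifiers (UMIs), each standing for 1 captured 3′ end of an mRNA, so that a long gene does not collect more of them than a short one and levels can be compared between genes without a correction for length. Levels are given as CPM, that is UMIs scaled to the size of the sample with edgeR's TMM factors within an experiment. Whole-organoid samples held 3722716 to 6330404 UMIs, Lgr5-EGFP+ samples of the second experiment 575242 to 1104126, and those of the irradiation experiment 1075715 to 1876729. Epithelial markers (Epcam, Cdh1, Krt8 and Vil1 summed) reached 2153 to 3372 CPM in every sample of all experiments, whereas Pecam1, which marks endothelium, another site of Dll4 expression, had at most 4 UMIs in any sample. One library of the whole organoids went against its label: in VIP-treated mouse 3, the repeat library labelled as the second, the goblet cell gene Clca1 stood at 52.3 CPM, within the 40.2 to 60.9 CPM of the 5 untreated libraries and below the 173 to 325 CPM of the other 7 VIP-treated libraries. The main results of whole organoids are therefore also given without this library.

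Hes1 was by far the most abundant member in untreated samples. In untreated whole organoids the mean level was 345 ± 3.76 CPM for Hes1 and 90.0 ± 10.3 CPM for Adam10 (SD, n = 3), followed by 20.5 ± 3.57 CPM for Dll1, 15.8 ± 3.22 CPM for Rbpj, 14.5 ± 7.45 CPM for Notch1, 8.99 ± 1.13 CPM for Notch2, 8.94 ± 2.80 CPM for Jag1 and 5.23 ± 1.81 CPM for Dll4. The ranges of Hes1, Adam10 and Dll1 over the mice did not meet, whereas from Dll1 downwards each gene's range overlapped with that of its neighbour in this order. The order began with Hes1 and Adam10 in untreated Lgr5-EGFP+ cells of both other experiments too, with Hes1 at 374 ± 28.6 and 448 ± 23.6 CPM and Adam10 at 71.8 ± 15.01 and 51.8 ± 2.42 CPM (SD, n = 4). Below these, all ranges overlapped with those of their neighbours. Dll1 held the 3rd place in whole organoids, the 5th in Lgr5-EGFP+ cells of the second experiment and the 6th in those of the irradiation experiment. The compartments were measured in different mice and experiments, so that a difference between compartments cannot be told apart from one between experiments.

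**Figure D1:**
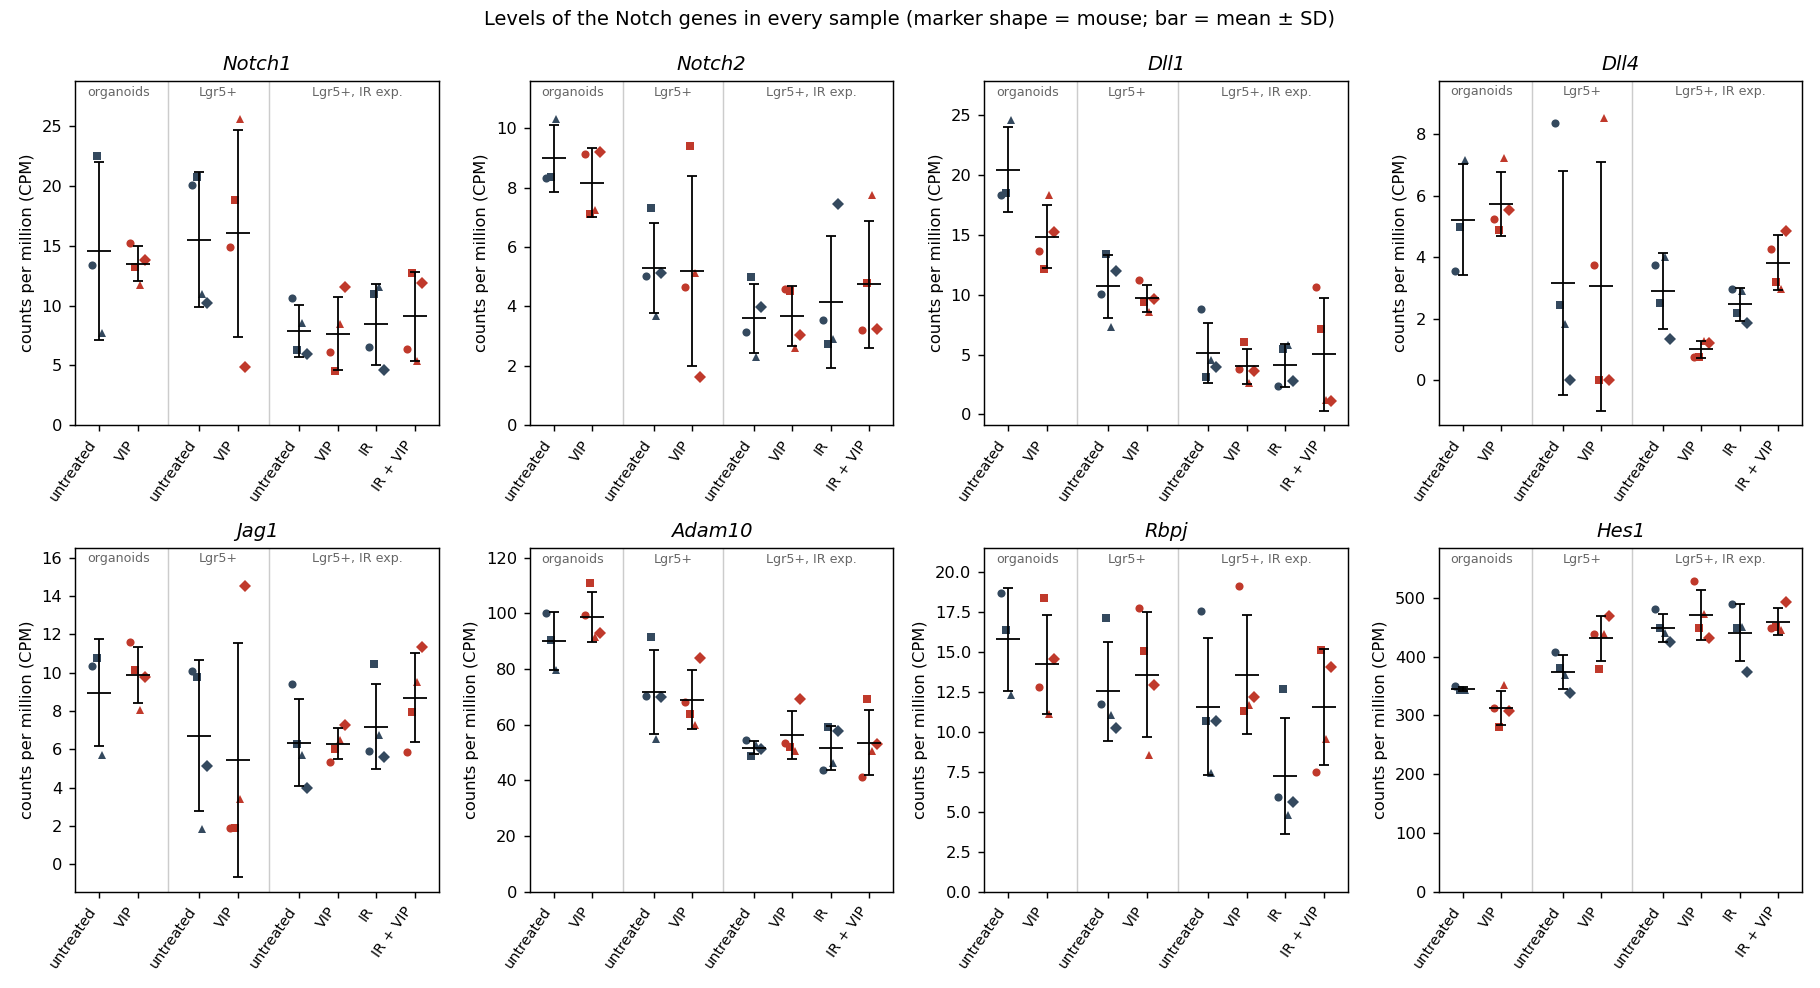
Level of each gene in CPM (linear axis) in every sample of whole organoids (left), Lgr5-EGFP+ cells with or without VIP (middle) and Lgr5-EGFP+ cells of the irradiation experiment (right; IR, 6 Gy), with VIP-treated samples in red, untreated samples in blue, the marker shape giving the mouse and the bars the mean ± SD. Hes1 stayed between 281 and 529 CPM in all samples, while the 6 genes other than Hes1 and Adam10 lay at or below 25.6 CPM.

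The first comparison asked how VIP changed the pathway in whole organoids. The test was the quasi-likelihood test of edgeR with the mouse as a block, and p-values were adjusted over all genes tested by the Benjamini-Hochberg procedure. None of the 8 genes reached the threshold of an edgeR adjusted p of 0.05, where 4.82% of all 12727 genes tested did. At an unadjusted p under 0.05 there was 1 member with edgeR, Dll1, and none with DESeq2. Of the 8 members, 3 had a log2 fold change above 0, and their median was −0.11, beside −0.00 for all genes tested.

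Dll1, a ligand of early secretory cells, stood at 18.3, 18.5 and 24.6 CPM in the untreated organoids of mice 1 to 3 and at 13.7, 12.2 and 18.3 CPM in the VIP-treated organoids of the same mice, with 15.3 CPM in VIP-treated mouse 4. It was lower with VIP in 3 of 3 mice, although the 2 groups overlapped narrowly, since VIP-treated mouse 3 lay level with untreated mouse 1. The fitted log2 fold change was −0.48 (SE 0.15, 95% confidence interval −0.81 to −0.15, edgeR adjusted p = 0.105). This adjusted p was 0.0652 without the second library of VIP-treated mouse 3 and 0.04996 without mouse 3, where Dll1 came to lie just below the threshold and 1668 genes passed, and 0.854 with DESeq2. With only the first technical library of each culture, the log2 fold change of Dll1 was −0.30 (edgeR adjusted p = 0.362), and its unadjusted p was then not under 0.05. Behind these levels were 86 to 108 Dll1 molecules per untreated sample and 77 to 114 per VIP-treated sample.

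Hes1 was measured far more precisely. It stood at 350, 343 and 344 CPM in untreated mice 1 to 3, and at 312, 281, 351 and 308 CPM in VIP-treated mice 1 to 4. The 3 untreated samples lay close together, and 3 of the 4 VIP-treated samples lay below them. The log2 fold change was −0.14 (SE 0.09, 95% confidence interval −0.34 to 0.06, edgeR adjusted p = 0.508), and −0.15 without the second library of VIP-treated mouse 3 (adjusted p = 0.247). That library held 368 CPM of Hes1 when scaled to its own size, against 269 to 330 CPM in the other VIP-treated libraries and 323 to 374 CPM in the untreated ones. Without mouse 3, Hes1 had an unadjusted edgeR p under 0.05. Over all alternatives its log2 fold change ran from −0.22 to −0.07, with an adjusted p of at least 0.0741 with edgeR or DESeq2.

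The other 6 genes had intervals that included no change. Adam10, the receptor-cleaving protease, stood at 100.1, 90.4 and 79.5 CPM in untreated mice 1 to 3 and at 99.5, 111, 91.6 and 92.8 CPM in VIP-treated mice 1 to 4, with a log2 fold change of 0.16 (95% confidence interval −0.06 to 0.38). Rbpj had a log2 fold change of −0.17 (−0.56 to 0.22), the receptor genes Notch1 and Notch2 −0.09 (−0.57 to 0.40) and −0.19 (−0.65 to 0.28), and the ligand genes Dll4 and Jag1 0.17 (−0.38 to 0.72) and 0.15 (−0.29 to 0.58). Notch1 stood at 13.4, 22.5 and 7.72 CPM in untreated mice 1 to 3, so that its VIP-treated samples (11.7 to 15.3 CPM) lay inside the untreated range. Jag1 was low in the same untreated mouse 3, at 5.72 CPM against 10.4 and 10.8 CPM in mice 1 and 2.

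Among 59 other genes of the pathway, 44 could be tested in whole organoids and none passed the threshold. Their median log2 fold change was 0.03, with 25 above 0. The lowest p belonged to Psen2, a catalytic subunit of gamma-secretase, at −0.51 (95% confidence interval −0.86 to −0.16), Dtx4, a Deltex family ubiquitin ligase, at −0.48 (−0.83 to −0.12), and the cyclin gene Ccnd1, at 0.29 (0.07 to 0.50). Their adjusted p were 0.112, 0.150 and 0.158 in the edgeR test. Without the second library of VIP-treated mouse 3, 2 of the 44 passed, both lower with VIP: Dtx4, at −0.56, and the corepressor gene Ncor1, at −0.26 (edgeR adjusted p = 0.0411 and 0.0471). Over all genes tested, 1261 passed in that fit against 614 in the reported one, so these 2 do not set the pathway apart. Of the 10 secretory lineage transcription factors listed, all tested, 2 rose: Atoh1, with a log2 fold change of 0.50 (adjusted p = 0.0324), and Creb3l1, a factor of secretory cells, with 0.64 (edgeR adjusted p = 0.00249). Atoh1 rose from 18.2, 17.9 and 41.8 CPM to 23.9, 25.9 and 61.3 CPM in mice 1 to 3, in the same 3 mice in which Dll1 was lower. The gap between the within-mouse log2 changes of Atoh1 and Dll1, a pair chosen after their values were seen, was 0.96 ± 0.16 (SD, n = 3), above 0 in 3 of 3 mice. It is a description, with no test. Without the second library of VIP-treated mouse 3 the gap was 1.09 ± 0.28, and Atoh1 and Creb3l1 had log2 fold changes of 0.69 and 0.75 (edgeR adjusted p = 0.00635 and 0.000695). Without mouse 1 or without mouse 2, Atoh1 did not pass the threshold (adjusted p = 0.1304 and 0.174), nor with DESeq2, with library size as the only scaling or without the mouse as a block. The call of Creb3l1 was lost without the mouse as a block. Goblet cell markers moved with these values: 6 of 7 rose, among them Clca1 with a log2 fold change of 2.08 (7 of 7, with Clca1 at 2.27, without the second library of VIP-treated mouse 3), and their summed level was 5346 to 7216 CPM in untreated and 7710 to 9398 CPM in VIP-treated organoids. That library was picked out by its low Clca1, so the higher Clca1 value without it follows from the choice. Values of other goblet and secretory genes without it may depend on the same choice and are not separate support. In bulk RNA, more cells of a type and more RNA per cell cannot be told apart, and the part of the goblet cells in the values of Dll1 and Atoh1 was not tested.

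The second comparison asked the same of sorted Lgr5-EGFP+ cells after 72 h of VIP. At this depth only Hes1, Adam10 and Notch1 passed the filter on low counts, and none of the 3 passed the threshold, where 0.0885% of 6778 genes did. None had an unadjusted p under 0.05, with edgeR or DESeq2. Hes1 stood at 408, 381, 369 and 339 CPM in untreated mice 1 to 4 and at 438, 378, 439 and 468 CPM in VIP-treated mice 1 to 4. It was higher with VIP in 3 of 4 mice, and the groups overlapped. The log2 fold change was 0.20 (SE 0.13, 95% confidence interval −0.07 to 0.47, edgeR adjusted p = 0.925). Adam10 stood at 55.1 to 91.6 CPM in untreated and 59.8 to 84.0 CPM in VIP-treated cells, with a log2 fold change of −0.06 (−0.46 to 0.34), and Notch1 had −0.02 (−0.79 to 0.76).

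The 5 members below the filter were present in few molecules. Rbpj had 33 molecules over the 4 untreated and 40 over the 4 VIP-treated samples, Dll1 28 and 28, Jag1 18 and 14, Notch2 14 and 14, and Dll4 8 and 9. For Jag1, 9 of the 14 molecules with VIP came from mouse 4. Dll4 had no molecule in untreated mouse 4 and in VIP-treated mice 2 and 4, where a count of 0 allows levels of up to 5.13, 5.64 and 4.85 CPM, counting error only. Its other samples held 1 to 5 molecules, at up to 8.54 CPM, and it was not tested at this depth. Of the 59 other pathway genes, 21 were tested and none passed. The 3 with the lowest p were Ncor1, a corepressor, with a log2 fold change of −0.44 (95% confidence interval −0.79 to −0.10), Ccnd1 with 0.38 (0.06 to 0.71) and Olfm4 with 0.30 (0.01 to 0.59), with adjusted p of 0.868, 0.884 and 0.884 in the edgeR test. Olfm4 was higher with VIP in 4 of 4 mice.

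Whether the effect of VIP differed between whole organoids and Lgr5-EGFP+ cells was tested as an interaction over both tables. Notch2, Dll1, Jag1 and Rbpj, below the filter in Lgr5-EGFP+ cells alone, entered it because both tables were filtered together. Their values in it rest on the few molecules given above for these cells. None of the 7 members tested passed, where 0.147% of 10186 genes did, and at an unadjusted p under 0.05 there was none with edgeR and 1, Hes1, with DESeq2. Hes1 lay close to that value, and its unadjusted p was also under 0.05 in several alternative edgeR fits, among them the one without the second library of VIP-treated mouse 3, while its adjusted p was at least 0.4197 in each. Jag1 had an unadjusted edgeR p under 0.05 when mouse 4 of both experiments was left out. The VIP effect on Hes1 was higher by a log2 value of 0.34 in Lgr5-EGFP+ cells (SE 0.17, 95% confidence interval −0.00 to 0.68, edgeR adjusted p = 0.791). For Dll1 the difference was 0.36 with an interval of −0.51 to 1.23. Of the other pathway genes, 39 were tested and none passed. The lowest p belonged to Adam17, a further receptor-cleaving protease, with −1.30, the kinase gene Cdk8 with −1.04 and Olfm4 with 0.41, at adjusted p of 0.597, 0.676 and 0.753 in the edgeR test.

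**Figure D2:**
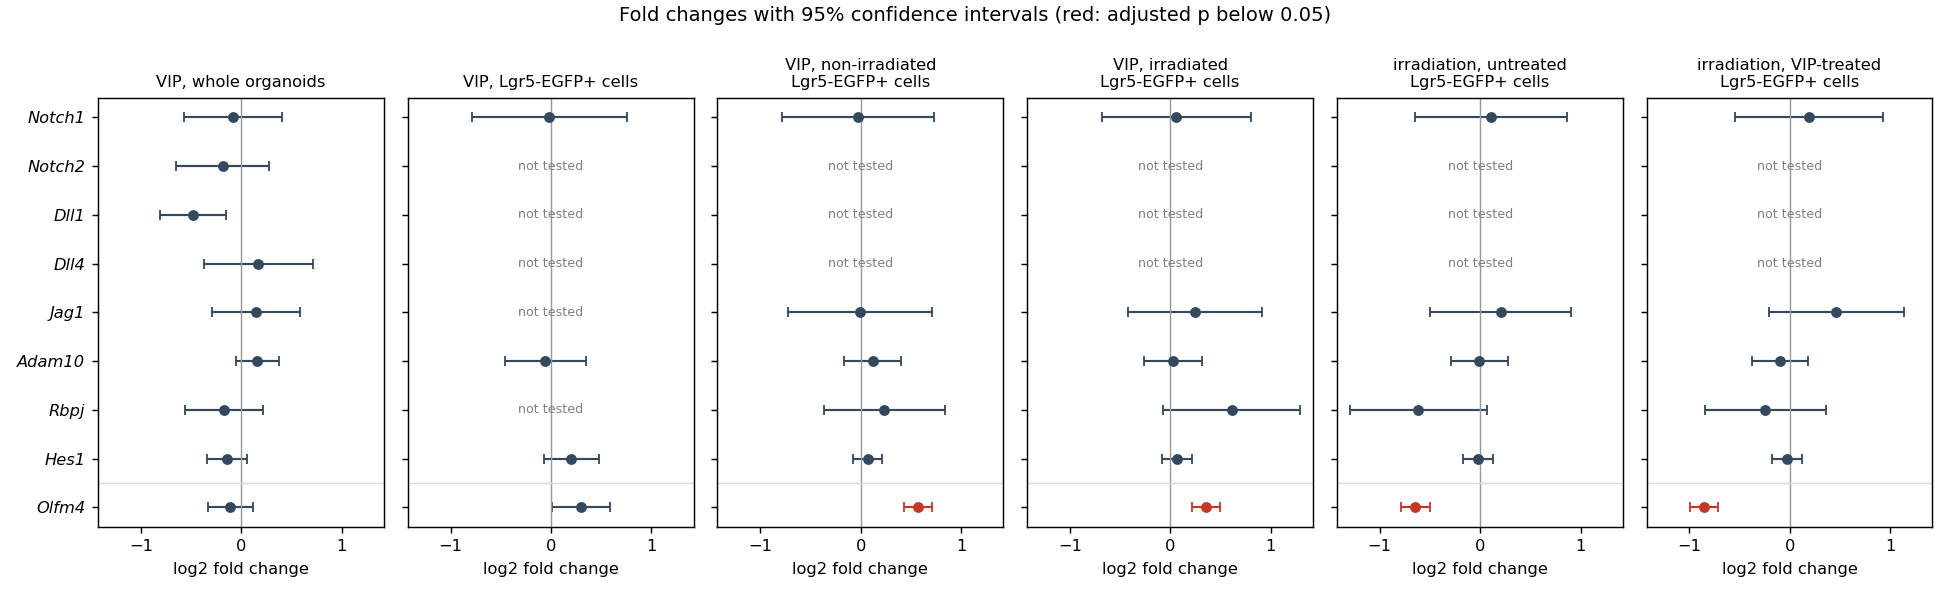
Log2 fold change (x axis) with its 95% confidence interval for each gene (y axis) in the 6 comparisons of VIP with no treatment and of irradiation with no irradiation, in red where the adjusted p was below 0.05. No member was called, the intervals of Hes1 stayed between −0.34 and 0.47, and Olfm4 was called in the 4 comparisons of the irradiation experiment.

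The irradiation experiment held the most precise values for Hes1. Hes1 stood at 480, 448, 440 and 425 CPM in untreated non-irradiated cells of mice 1 to 4, at 529, 449, 473 and 432 CPM with VIP, at 489, 449, 450 and 374 CPM after irradiation, and at 449, 450, 446 and 493 CPM after irradiation with VIP. The 4 groups lay over each other, with means of 448 ± 23.6, 471 ± 42.6, 441 ± 48.02 and 459 ± 22.5 CPM (SD, n = 4). The log2 fold change with VIP was 0.07 (95% confidence interval −0.08 to 0.22) in non-irradiated and 0.06 (−0.09 to 0.21) in irradiated cells. With irradiation it was −0.02 (−0.17 to 0.13) in untreated and −0.03 (−0.18 to 0.12) in VIP-treated cells. The interaction of VIP and irradiation on Hes1 was −0.01 (−0.22 to 0.20). These comparisons share samples and are therefore not independent of each other.

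In the comparison of VIP-treated with untreated non-irradiated cells, 5 members could be tested and none passed, where 0.742% of 9976 genes did. In irradiated cells, none of the 5 passed with VIP, where 0.221% of genes did. With irradiation, none of the 5 passed in untreated cells, where 4.46% of genes did, and none in VIP-treated cells, where 7.78% did. None passed for the interaction, where 0.00% of genes did, with 634 genes at an unadjusted p under 0.05. In none of these 5 comparisons had a member an unadjusted p under 0.05 in the edgeR test as reported or with DESeq2. In other edgeR fits 1 member did, either Rbpj or Dll4: in each of the 5 comparisons when all genes with any count were kept, with VIP in irradiated cells when only its 2 groups were fitted, and with VIP in irradiated cells and irradiation of untreated cells when mouse 2 was left out.

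Rbpj had the widest shifts among the members tested. It stood at 17.6, 10.6, 7.44 and 10.6 CPM in untreated non-irradiated cells of mice 1 to 4, at 19.1, 11.3, 11.7 and 12.1 CPM with VIP, at 5.92, 12.6, 4.83 and 5.59 CPM after irradiation, and at 7.48, 15.1, 9.54 and 14.1 CPM after irradiation with VIP. After irradiation alone, 3 of the 4 samples lay below all other samples of the experiment and mouse 2 did not. The log2 fold change with irradiation in untreated cells was −0.62 (SE 0.33, 95% confidence interval −1.30 to 0.06, edgeR adjusted p = 0.361), lower in 3 of 4 mice. With VIP in irradiated cells it was 0.61 (SE 0.33, −0.07 to 1.29, edgeR adjusted p = 0.923), higher in 4 of 4 mice. Over the mice left out in turn, the former ran from −1.12 (without mouse 2) to −0.21 (without mouse 1) and the latter from 0.39 (without mouse 4) to 0.94 (without mouse 2), with adjusted p of at least 0.161 and 0.6975. With VIP in non-irradiated cells it was 0.24 (−0.37 to 0.84), also higher in 4 of 4 mice. These levels rest on 44 to 78 molecules per group of 4 samples.

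Adam10 was measured with 292 to 347 molecules per group. Its means were 51.8 ± 2.42 CPM in untreated non-irradiated cells, 56.3 ± 8.68 CPM with VIP, 51.8 ± 7.87 CPM after irradiation and 53.5 ± 11.7 CPM after irradiation with VIP (SD, n = 4). The log2 fold changes ran from −0.10 (95% confidence interval −0.38 to 0.18, irradiation in VIP-treated cells) to 0.12 (−0.16 to 0.40, VIP in non-irradiated cells). Jag1 ran from −0.01 (−0.73 to 0.71, VIP in non-irradiated cells) to 0.46 (−0.21 to 1.13, irradiation in VIP-treated cells), where it was higher in 4 of 4 mice. Notch1 ran from −0.03 (−0.79 to 0.73) to 0.19 (−0.55 to 0.93) in the same 2 comparisons, on 46 to 59 molecules per group. Changes of Jag1 and Notch1 smaller than these intervals were not detectable at this depth.

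Notch2, Dll1 and Dll4 were below the filter in the irradiation experiment. Notch2 had 21 to 31 molecules per group and Dll1 23 to 33, with 20 of the 33 Dll1 molecules after irradiation with VIP in mouse 1. Dll4, a ligand that acts with Dll1 in the crypt, had 6, 4, 7 and 2 molecules in untreated non-irradiated cells of mice 1 to 4, and 1, 1, 2 and 2 with VIP. After irradiation it had 5, 4, 3 and 2 molecules, and 8, 4, 5 and 9 after irradiation with VIP. VIP-treated cells thus held 6 Dll4 molecules in all without irradiation and 26 with it, and each irradiated VIP-treated sample had more than each non-irradiated VIP-treated one. When all genes with any count were kept, the log2 fold change with irradiation in VIP-treated cells was 1.81 (SE 0.60, edgeR adjusted p = 0.0680), and Dll4 was higher in 4 of 4 mice. In the same fit it was −1.45 (SE 0.63, adjusted p = 0.615) with VIP in non-irradiated cells, and the interaction was 2.06 (SE 0.81, adjusted p = 0.910). None of these passed the threshold. With irradiation in VIP-treated cells, that fit gave some genes far smaller edgeR adjusted p than the reported fit. Olfm4 had 8.54e-51 in it against 8.02e-09, while Foxa3 had 0.00308 against 0.00284. The adjusted p of Dll4 can therefore not be set beside those of the reported fit. Pecam1, for comparison, had 8 molecules in the non-irradiated and 5 in the irradiated VIP-treated cells. Of the 5 endothelial markers listed, 1 had any molecule in the former and 3 in the latter. Their summed level was 0.607 to 3.01 CPM in the former and 0.596 to 1.62 CPM in the latter. The part of endothelial cells in the Dll4 counts was not tested.

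**Figure D3:**
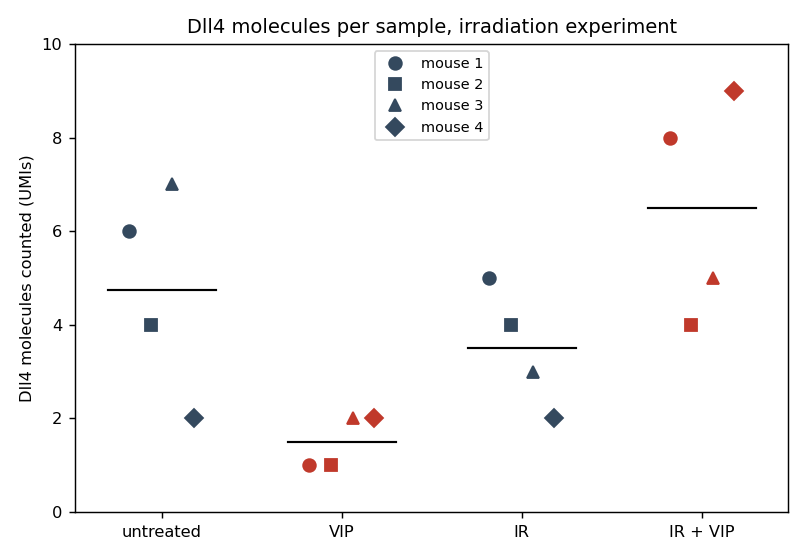
Dll4 molecules (UMIs, y axis) in each Lgr5-EGFP+ sample of the irradiation experiment by condition (x axis; IR, 6 Gy), with the marker shape giving the mouse, VIP-treated samples in red, untreated samples in blue and a line at the mean. The 4 VIP-treated non-irradiated samples held 1 or 2 molecules and the 4 VIP-treated irradiated samples 4 to 9.

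Olfm4, listed as a Notch target and also a stem cell marker, moved in each comparison of the irradiation experiment. It stood at 2468, 2941, 3070.5 and 3507 CPM in untreated non-irradiated cells of mice 1 to 4, at 4202, 4355, 4749 and 4341 CPM with VIP, at 1663, 1911, 2071 and 1999 CPM after irradiation, and at 2203, 2215, 2592 and 2755 CPM after irradiation with VIP. Within each pair of groups that differ by VIP alone the samples did not overlap, and the irradiated untreated samples were the lowest of all 16. Olfm4 rose with VIP by a log2 fold change of 0.57 in non-irradiated cells (SE 0.07, adjusted p = 4.82e-05) and of 0.35 in irradiated cells (SE 0.07, edgeR adjusted p = 0.0176). With irradiation it fell by 0.64 on the log2 scale in untreated cells (SE 0.07, adjusted p = 1.96e-06) and by 0.86 in VIP-treated cells (SE 0.07, edgeR adjusted p = 8.02e-09). The rise with VIP in irradiated cells did not pass without mouse 3, without mouse 4 or without the mouse as a block, and had an adjusted p of up to 0.264 over the alternatives.

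Olfm4 and Hes1 were set side by side within mice, a pair chosen after their values were seen and therefore given with no test. The within-mouse log2 change of Olfm4 exceeded that of Hes1 by 0.50 ± 0.15 with VIP in non-irradiated cells and by 0.29 ± 0.20 with VIP in irradiated cells (SD, n = 4), in 4 of 4 mice each time. With irradiation the difference was −0.61 ± 0.02 in untreated and −0.83 ± 0.12 in VIP-treated cells, below 0 in 4 of 4 mice. After 72 h of VIP in the second experiment the difference was 0.10 ± 0.22, above 0 in 2 of 4 mice, and in whole organoids it was 0.03 ± 0.38, above 0 in 2 of 3 mice.

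**Figure D4:**
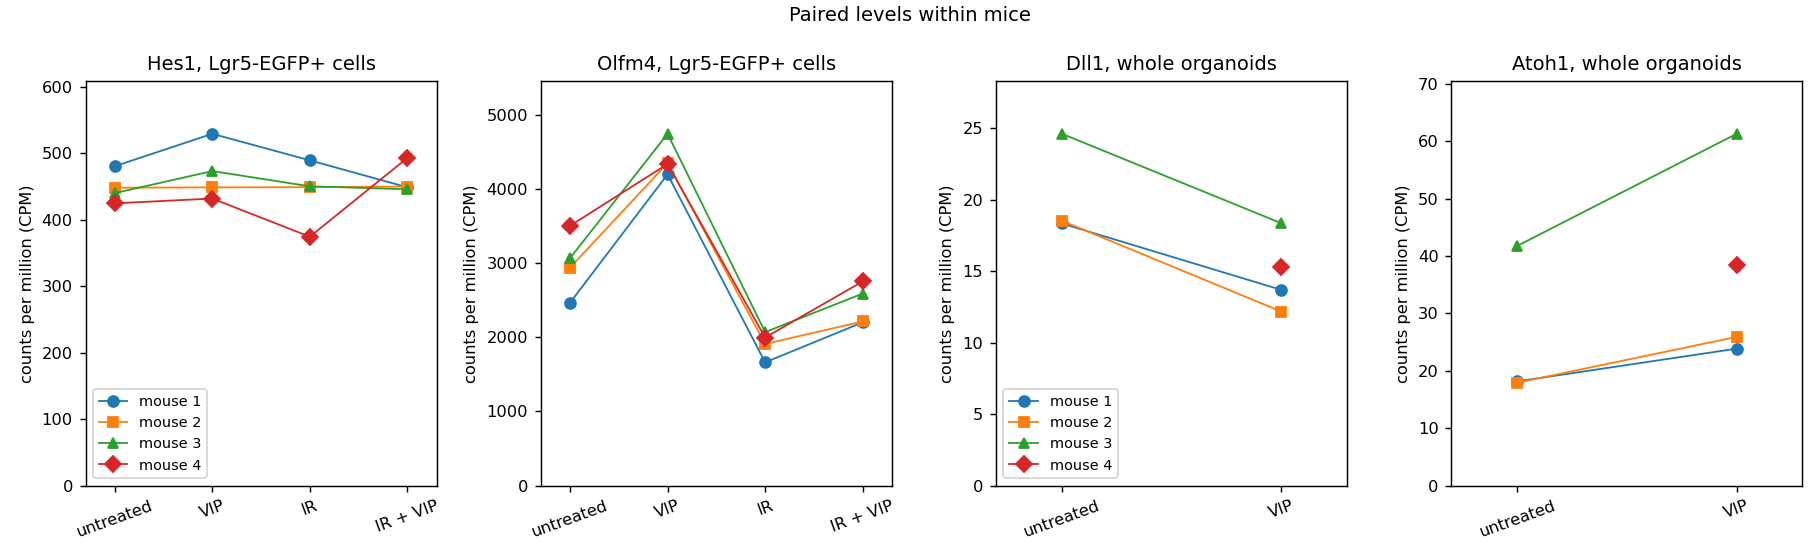
Levels in CPM (linear axis from 0) of Hes1 and Olfm4 in Lgr5-EGFP+ cells of the irradiation experiment (IR, 6 Gy) and of Dll1 and Atoh1 in whole organoids, with lines joining the samples of a mouse. Hes1 stayed between 374 and 529 CPM while Olfm4 ran from 1663 to 4749 CPM, and in whole organoids Dll1 was lower and Atoh1 higher with VIP in 3 of 3 mice.

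Of the 59 other pathway genes, 35 were tested in the irradiation experiment. With VIP in non-irradiated cells 2 rose, Olfm4 and Hdac1, a histone deacetylase of corepressor complexes, which had a log2 fold change of 0.59 (SE 0.10, edgeR adjusted p = 0.00273). Hdac1 stood at 61.5 to 83.9 CPM in untreated and 107 to 122 CPM in VIP-treated non-irradiated cells, without overlap. With VIP in irradiated cells Olfm4 alone of the 35 rose. With irradiation of untreated cells Olfm4 fell and Ccnd1, a cell cycle gene listed as a Notch target, rose by a log2 fold change of 0.45 (adjusted p = 0.0150), a call that was lost when mouse 2, 3 or 4 was left out. With irradiation of VIP-treated cells Olfm4 and the corepressor gene Ctbp1 fell, Ctbp1 by 0.35 on the log2 scale (adjusted p = 0.00533), and Ccnd1 rose by 0.82 (edgeR adjusted p = 1.18e-05). Without mouse 2 the adjusted p of Ctbp1 was 0.0733. The median log2 fold change of the 35 genes was −0.01, −0.01, −0.02 and −0.08 in these 4 comparisons, beside medians of −0.00, −0.00, −0.00 and 0.00 over all genes tested. None passed in the interaction, where the lowest p belonged to Hdac1 with −0.49, Ccnd1 with 0.37 and Olfm4 with −0.22, at adjusted p of 0.678, 0.687 and 0.741 in the edgeR test.

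Of the 10 secretory lineage transcription factors, 7 were tested in the irradiation experiment. With VIP in non-irradiated cells Creb3l1 and Foxa3, a factor of goblet and Paneth cells, rose by log2 fold changes of 0.61 and 0.32 (edgeR adjusted p = 0.0302 and 0.0406). The call of Creb3l1 was lost without mouse 2, 3 or 4 and without the mouse as a block, and DESeq2 gave it no adjusted p. That of Foxa3 was lost when any 1 of the 4 mice was left out, when all genes with any count were kept and without the mouse as a block. With irradiation of VIP-treated cells they fell by 0.49 and 0.36 on the log2 scale (adjusted p = 0.0238 and 0.00284), and Neurod1, a factor of enteroendocrine cells, rose by 1.32 (edgeR adjusted p = 0.00346). In this comparison the call of Creb3l1 was lost with DESeq2 and without mouse 2 or 4, and that of Foxa3 without mouse 3. None of the 7 passed with VIP in irradiated cells, with irradiation of untreated cells or in the interaction.

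Markers of other cell types moved with irradiation and with VIP in the sorted cells. With irradiation of untreated cells 6 of 6 Paneth, 5 of 7 goblet and 3 of 6 enteroendocrine markers tested rose, and of the 7 stem cell markers Olfm4 and Smoc2 fell. Enterocyte markers rose too, 2 of 7, with 7 of 7 above 0 and a median log2 fold change of 0.87. With irradiation of VIP-treated cells 6 of 6 Paneth, 3 of 7 goblet and 6 of 6 enteroendocrine markers rose. The enteroendocrine median log2 fold change was 1.12, and Neurod1 is itself 1 of these 6. Here 1 of 7 enterocyte markers rose, with 7 of 7 above 0 and a median of 0.45. Tuft markers were above 0 in 4 of 4 in both comparisons, with 0 and 1 passing. Over all genes tested, 4.46% passed in the former comparison and 7.78% in the latter. With VIP in non-irradiated cells the enterocyte markers Fabp1 and Fabp2, which encode fatty acid binding proteins, fell by 0.95 and 0.41 on the log2 scale (edgeR adjusted p = 0.0128 and 0.0140). None of the 6 Paneth markers passed there, with a median log2 fold change of −0.41 and 0 of 6 above 0. With VIP in irradiated cells Fabp1 and the goblet cell gene Fcgbp fell by 1.37 and 1.05 (edgeR adjusted p = 0.00041 and 0.0297). The summed Paneth markers were at 9310 to 13224 CPM in non-irradiated and 12822 to 23748 CPM in irradiated untreated cells, and the summed stem cell markers at 3385 to 4450 and 2467 to 2881 CPM. With VIP, the stem cell list was at 5243 to 5753 CPM in non-irradiated and 3079 to 3701 CPM in irradiated cells. Olfm4 is itself 1 of the 7 stem cell markers and made up most of each sum, so the sums largely repeat its values. The median log2 fold change of the 7 was 0.02 with irradiation of untreated and −0.26 of VIP-treated cells (4 and 3 of 7 above 0). With VIP it was 0.13 in non-irradiated and 0.12 in irradiated cells (5 and 6 of 7 above 0). The part of cell composition in the values of Olfm4, Neurod1 and Rbpj was not tested.

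Across the 16 samples of the irradiation experiment, the genes most like each tested member were named by Pearson's r of log2 CPM centred within mice, as a description, since the samples share their depth and conditions and the best of 9976 genes are high by choice. For Hes1 they were Ccdc3 (r = 0.86), Dcun1d1 (0.85) and Nup88 (0.84), and for Rbpj Eef1a1 (0.89), Spop (0.87) and Nfib (0.87). For Notch1 they were Nucks1 (0.91), Cdc5l (0.90) and Dclre1a (0.87), for Jag1 Sde2, Ash1l (both 0.83) and Hsp90ab1 (0.82), and for Adam10 Chd8 (0.89), Ckap5 (0.88) and Tm9sf3 (0.86). No other tested member was among these genes, and Notch2, Dll1 and Dll4, below the filter, could not be.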

How the data were processed

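RNA of whole jejunal organoids and of sorted Lgr5-EGFP+ cells was sequenced as 3′ libraries. The values the authors deposited are UMI counts of each gene in each library, not normalized, made with the Drop-seq pipeline 1.0 on GRCm38 with GENCODE M25, per the study's methods, as were doses and times. The 37 libraries were mapped to groups by their labels, with 0 columns without a sample. Libraries that repeat a culture were added up, which left 31 samples of 12 mice.

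edgeR 4.0.16 in R 4.3.3 served for the tests (filterByExpr by group, TMM, quasi-likelihood, threshold 0.05 after Benjamini-Hochberg adjustment over all genes tested), with the mouse as a block and, in the irradiation experiment, all 4 groups in 1 fit. Mouse 4 of the whole organoids has no untreated sample and adds nothing to the fold changes. Paired samples came from the same animal by the labels. The correlation of their deviations from group means was 0.283 to 0.656 within mice and −0.573 to 0.356 between mice in whole organoids, 0.0292 to 0.212 and −0.144 to 0.150 in Lgr5-EGFP+ cells, and −0.0707 to 0.158 and −0.204 to 0.204 in the irradiation experiment. Fold changes are on the log2 scale, with 95% confidence intervals from the same fit. The log2 CPM used a prior count of 2, and a count of 0 is given the limit of 3 counts. The test was checked on simulated data with known changes. These were large, lay in genes of higher level than most members, and were drawn without differences between mice. The check therefore does not show how well small changes in genes of low level would be found.

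The members and gene lists were chosen with earlier results of these data known. Named genes are the members, pathway genes past the threshold or, where none passed, the 3 with the lowest p, and the 3 genes most like each member. Alternatives were DESeq2 1.42.0, RLE factors, library size only, any count, at least 10 counts in every sample, no replicate block, leaving out each mouse, the first technical library only, leaving out the second library of VIP-treated mouse 3, and only the 2 groups compared. The alternatives for other named genes, and the gene lists without the doubted library of mouse 3, were added after seeing the data.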

Additional observations from a re-analysis of the deposited data

Results flagged for a closer look

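Within groups of 4, 56 sets of member levels were searched for a sample standing apart by Dixon's test, and 6 were found, where chance flags about 1 in 20. Hes1 was highest in mouse 4 of the irradiated VIP-treated cells, at 493 CPM against 446 to 450 CPM in the others. Notch2 was highest in mouse 4 of the irradiated untreated cells, at 7.45 CPM against 2.75 to 3.55 CPM, on 8 molecules. Rbpj was highest in mouse 2 of the irradiated untreated cells, at 12.6 CPM against 4.83 to 5.92 CPM, and in mouse 1 of the non-irradiated VIP-treated cells, at 19.1 CPM against 11.3 to 12.1 CPM. Jag1 was highest in mouse 4 of the VIP-treated Lgr5-EGFP+ cells of the second experiment, at 14.5 CPM against 1.87 to 3.42 CPM, on 9 molecules. Adam10 was highest in mouse 4 of the non-irradiated VIP-treated cells, at 69.2 CPM against 50.6 to 53.5 CPM.

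The mean within-mouse log2 changes of Dll4 with VIP had opposite signs in non-irradiated and irradiated Lgr5-EGFP+ cells, at −0.82 and 0.43, and so had the changes of every mouse. They rest on 1 to 9 molecules per sample, and in 2 pairs (2 and 2 molecules in mouse 4 without irradiation, 4 and 4 in mouse 2 with it) the counts were equal and the sign came from the scaling to library size alone. Dll4 was below the filter on low counts, so the difference was not tested in the analysis as planned. In the fit to all genes with any count its changes had edgeR adjusted p of 0.615 and 1, and its interaction 0.910.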

How the results depend on the processing

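Of 454 member values under the alternatives, 411 kept their direction and their side of the threshold, 42 reversed, 0 lost and 1 gained the threshold; for 9 of these values DESeq2 gave no adjusted p. The reversals touched 29 of 43 member results, whose reported log2 values were at most 0.32 in size, and their cause was not tested. Without mouse 3, the count of members passing with VIP in whole organoids was 1 (Dll1), and it was 0 to 1 over the mice left out; it was 0 under the other alternatives in each comparison, also without the replicate block for the paired samples. Single reversals were −0.057 for Jag1 with VIP in whole organoids (first technical library only), 0.0057 for Notch1 with VIP at 72 h (library size only), 0.0096 and 0.010 for Hes1 in the interaction with irradiation (library size only, and any count), 0.0094 for Adam10 with irradiation alone (at least 10 counts) and 0.0015 for the same (no replicate block), and −0.011 for Notch1 in the interaction with compartment (DESeq2). Leaving out each mouse in turn, the values that turned in direction or gained the threshold moved as follows. Notch1 ran from −0.31 to 0.35 for VIP in whole organoids, −0.42 to 0.16 for VIP at 72 h, −0.40 to 0.25 for VIP without irradiation, −0.27 to 0.38 for VIP after irradiation, −0.18 to 0.42 for irradiation alone, −0.15 to 0.42 for irradiation with VIP, −0.18 to 0.40 for the interaction with irradiation and −0.32 to 0.37 for the interaction with compartment. Notch2 ran from −0.11 to 0.45 for the interaction with compartment. Dll1 ran from −0.51 to −0.42 for VIP in whole organoids. Dll4 ran from −0.0018 to 0.27 for VIP in whole organoids. Jag1 ran from −0.25 to 0.32 for VIP without irradiation, −0.010 to 0.54 for VIP after irradiation, −0.071 to 0.57 for irradiation alone and −0.0088 to 0.54 for the interaction with irradiation. Adam10 ran from −0.17 to 0.10 for VIP at 72 h, −0.0025 to 0.18 for VIP without irradiation, −0.026 to 0.078 for VIP after irradiation, −0.11 to 0.11 for irradiation alone, −0.26 to 0.017 for irradiation with VIP, −0.17 to 0.080 for the interaction with irradiation and −0.31 to 0.0085 for the interaction with compartment. Rbpj ran from −0.37 to 0.030 for VIP in whole organoids, −0.44 to 0.13 for irradiation with VIP and −0.095 to 0.64 for the interaction with compartment. Hes1 ran from −0.046 to 0.13 for VIP after irradiation, −0.036 to 0.021 for irradiation alone, −0.11 to 0.049 for irradiation with VIP and −0.13 to 0.078 for the interaction with irradiation. Among values that kept their direction, Rbpj ran from −1.12 to −0.21 for irradiation alone and 0.39 to 0.94 for VIP after irradiation, and Jag1 from −1.82 (without mouse 4) to −0.28 (without mouse 2) for the interaction with compartment. With the first technical library only, Dll1 stood at −0.30 for VIP in whole organoids. Over all alternatives, the number of genes passing was 99 to 1668 for VIP in whole organoids, 1 to 17 for VIP at 72 h, 32 to 184 for VIP without irradiation, 5 to 110 for VIP after irradiation, 176 to 643 for irradiation alone, 426 to 872 for irradiation with VIP, 0 to 34 for the interaction with irradiation and 0 to 57 for the interaction with compartment. In whole organoids, 1261 genes passed without the second library of VIP-treated mouse 3. Depth limited the ligands and receptors of the sorted cells, where 3 to 5 of the 8 members could be tested.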
